A study of Homo sapiens with 6 samples.

Results

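Genes that move sodium, calcium, chloride and bicarbonate across membranes were examined in RBE, an established human cell line from a cancer of the bile ducts inside the liver. The members were taken by gene symbol: voltage-gated sodium channels (SCN and a digit), the epithelial sodium channel (SCNN), voltage-gated calcium channels (CACN), the CLCN, CLIC and ANO families, TRPM, TRPV and TRPC channels, the ATP1A, ATP1B, ATP2A and ATP2B pump subunits, and the SLC4A, SLC9A and SLC12A carriers, with CFTR, AQP1, AQP3, ORAI1, STIM1, STIM2, ITPR1, ITPR2 and ITPR3 added. The rule found 132 of the 16200 genes in the deposited table. Of these, 79 passed the filter on low counts and were tested, and 53 did not. The symbols also take in 5 genes that are named after a transporter without being one (SLC9A3R1, SLC9A3R2, SLC4A1AP, TRPC4AP and TRPC5OS).

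Both groups were RBE cells, sequenced as poly(A)-enriched RNA in 3 libraries each. NC serves as the baseline here, and sgKCNQ3 was read as cells with a guide RNA against KCNQ3, a voltage-gated potassium channel subunit. The series describes knockdown of KCNQ3 in cholangiocarcinoma lines and RNA sequencing to find pathways downstream of it, with ERK signalling in view. The labels name no nuclease or repressor, no control guide and no culture time, and do not say whether the cells were 1 clone or a pool. They do not say that libraries came from separate cultures either, so p-values measure the spread between these libraries, which may be technical.

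Bile duct epithelium modifies bile by secreting chloride, bicarbonate and water. In the textbook scheme the Na+/K+-ATPase sets the sodium gradient, a sodium-potassium-chloride cotransporter and sodium-bicarbonate carriers load the cell with anions, and CFTR or calcium-activated chloride channels release chloride at the apical side, where an anion exchanger returns it in trade for bicarbonate. Calcium released from stores through inositol trisphosphate (IP3) receptors opens part of this pathway, and pumps in the endoplasmic reticulum and the plasma membrane clear it again. Membrane voltage, which potassium channels help to set, is part of the driving force for several of these steps.

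Library totals lay between 15601283 and 16089500 estimated counts. Pairs of libraries differed less within a group (chi-square per degree of freedom 1.63 to 4.17) than between groups (6.86 to 11.3). Within each group replicate 2 differed most from the other libraries. KCNQ3 mRNA was 16.6, 16.23 and 16.11 CPM (counts scaled to a common library size by trimmed-mean factors) in NC replicates 1 to 3 and 13.95, 13.06 and 11.95 CPM in sgKCNQ3 replicates 1 to 3, a log2 fold change of -0.33 (SE 0.0841, edgeR adjusted p = 0.00446), and on log2(TPM + 1) it did not pass (-0.15, limma adjusted p = 0.151). Of 14 biliary markers, 12 lay above 10 TPM (a unit corrected for transcript length and library size), and their sum was 4260 to 4360 TPM in NC and 4980 to 5080 TPM in sgKCNQ3. Hepatocyte markers summed to 91.6 to 93.8 TPM in NC and 100 to 109 TPM in sgKCNQ3. SERPINA1 made up most of that sum (means 73.7 and 80.6 TPM), and ALB had at most 3 counts in any library. Of 7 tested hepatocyte markers, 3 were called higher (FGA, FGB and FGG). Fibroblast markers summed to 5.93 to 6.83 and 8.50 to 9.45 TPM, and of 3 tested PDGFRA alone was called (means 3.92 and 6.12 TPM, edgeR adjusted p = 5.26e-06). Endothelial markers summed to at most 0.57 TPM in any library. Leukocyte markers, of which CD68 alone was above 10 TPM, summed to 94.8 to 101 TPM in NC and 80.6 to 88.5 TPM in sgKCNQ3, and neuronal markers, above 10 TPM only for TUBB3, to 147 to 154 and 134 to 144 TPM. The part of these shifts in the results that follow was not tested. In bulk RNA, fewer cells of a type and less RNA per cell cannot be told apart.

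Promoters are shown for 3 of the members with the smallest p-values, the pair of cation-chloride cotransporters that moved in opposite directions and the calcium pump gene ATP2B4. They come from RefSeq on GRCh38.p14, run from 250 bases before to 50 bases after the start that RefSeq gives the gene, and are written 5′ to 3′ on the gene's strand, with matches to the GC box GGGCGG on either strand in capitals. The windows are chr5:128083516-128083815 on the plus strand for SLC12A2, chr1:203626582-203626881 on the plus strand for ATP2B4 and chr16:67968645-67968944 on the minus strand for SLC12A4. The RefSeq start is that of the GENCODE gene for SLC12A2, but lies 271 bases inside the GENCODE gene for ATP2B4 and 907 bases inside it for SLC12A4.
SLC12A2: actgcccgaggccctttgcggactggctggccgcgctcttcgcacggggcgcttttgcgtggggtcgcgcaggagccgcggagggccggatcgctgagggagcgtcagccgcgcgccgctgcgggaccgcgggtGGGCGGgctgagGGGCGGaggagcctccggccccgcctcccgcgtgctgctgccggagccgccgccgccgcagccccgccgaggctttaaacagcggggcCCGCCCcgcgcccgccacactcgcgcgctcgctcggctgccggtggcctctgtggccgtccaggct
ATP2B4: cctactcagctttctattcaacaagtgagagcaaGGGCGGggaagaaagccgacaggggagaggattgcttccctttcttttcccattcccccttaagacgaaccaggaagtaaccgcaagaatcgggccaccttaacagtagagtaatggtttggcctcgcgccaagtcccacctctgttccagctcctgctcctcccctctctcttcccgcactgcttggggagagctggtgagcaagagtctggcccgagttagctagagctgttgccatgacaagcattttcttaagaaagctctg
SLC12A4: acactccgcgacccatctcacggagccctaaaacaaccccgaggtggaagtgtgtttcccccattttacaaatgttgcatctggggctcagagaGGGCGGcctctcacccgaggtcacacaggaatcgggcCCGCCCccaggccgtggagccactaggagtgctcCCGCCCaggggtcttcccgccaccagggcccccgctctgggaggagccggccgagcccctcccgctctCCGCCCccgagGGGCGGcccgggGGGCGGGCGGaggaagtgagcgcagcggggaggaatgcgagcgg
The SLC12A2 window held 3 GC boxes, that of ATP2B4 held 1 and that of SLC12A4 held 7, overlapping matches counted. GC content was 78.7%, 53.3% and 70% in the same order. None of the 3 windows held the AP-1 letters TGAGTCA, the ETS letters CCGGAAG or the CRE letters TGACGTCA on either strand, nor TATAAA on the gene's strand. These letters were looked for because AP-1 and ETS factors lie downstream of ERK. Among 57 tested members with a promoter in the table, 39 (68.4%) held a GC box, 3 (5.26%) the AP-1 letters and 3 (5.26%) the ETS letters, against 44.6%, 4.92% and 10.7% of all 27305 promoters of that length. Those 27305 promoters were not limited to genes that passed the filter on counts, as the 57 were. The shares therefore come from unlike sets, and no difference between them is read as particular to the members. The GC box was found in 11 of 14 such members called higher and 3 of 4 called lower. A match describes the letters and is no binding site. Only these exact letters were searched, so a missing match says nothing of other forms of a site.

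Changes among the transport genes were small, and as frequent as over all tested genes. A gene was called when its edgeR quasi-likelihood p, adjusted by Benjamini-Hochberg over all 12565 tested genes, was under 0.05. By this rule 23 of 79 tested members (29.1%) were called, the same share as over all tested genes (29.1%). Of the members, 18 (22.8%) were called higher in sgKCNQ3 and 5 (6.33%) lower, against 14% and 15.1% of all tested genes. Of calls over the whole table, 48.2% were higher, a share of 64.5% by library size alone and 80.8% on log2(TPM + 1), where the members' counts were 21 higher and 3 lower, and 19 higher and 3 lower. The median log2 fold change was 0.07 over tested members and -0.01 over all tested genes. Higher genes, from the smallest p, included SLC12A2, ATP2B4, SCN9A, ANO6, ATP2A2, CLCN3, SLC9A3R1, SLC4A4, TRPM7, SLC9A3R2, ITPR3, TRPC1, SLC4A11, SLC9A2, SCNN1A and CACNA2D1. Lower genes included SLC12A4, CLIC1, ATP1B3 and SLC4A3.

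The size of the called log2 fold changes was 0.12 to 0.68 among higher members and 0.15 to 0.47 among lower ones, and 16 of the 18 higher and all 5 lower were under 0.5. In 22 of the 23 the groups did not overlap in CPM, SCNN1A being the exception. The call and the separation rest on the same libraries, so the separation adds no support to the calls. Over the tested members 23 (29.1%) had every sgKCNQ3 library above every NC library and 7 (8.86%) every one below, against 20.4% and 21.3% of all tested genes.

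Fewer members were called higher when the length and base composition of transcripts were taken into account. Median transcript length was 4765 bases over tested members and 3482 bases over all tested genes, with a GC content of 53.3% and 48.5%. After the trends over length and GC were taken out of each library, 13 members (16.5%) were called higher and 5 (6.33%) lower, against 11.5% and 14.5% of all genes tested that way. DESeq2 called 11 members higher and 4 lower.

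**Figure D1:**
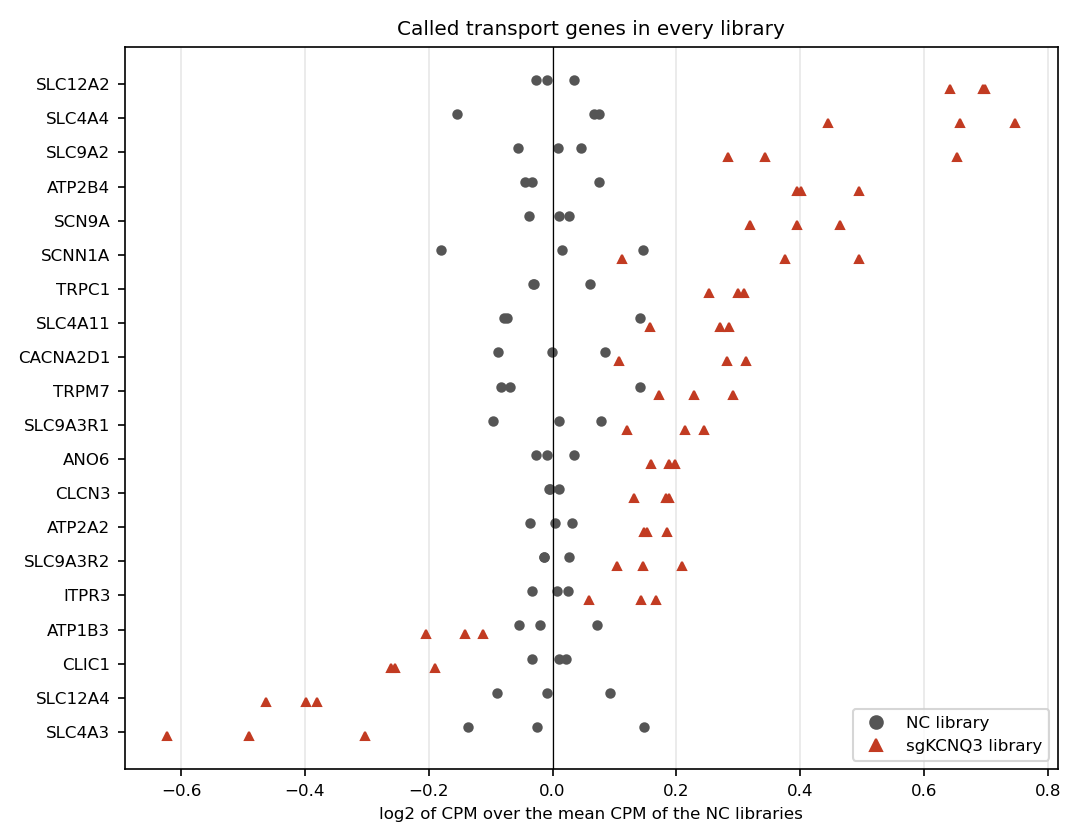
Each row is a called member (16 higher and 4 lower are plotted), and each point is 1 library (grey circles NC, red triangles sgKCNQ3) on a log2 scale of CPM over the mean of the 3 NC libraries. The groups are apart in every row but that of SCNN1A, in members that were picked by a test on these same libraries. SLC12A2 has the largest rise (log2 fold change 0.68).

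Levels within the cells were compared in TPM. CLIC1, a chloride intracellular channel family member that is mostly a soluble protein, was the most abundant member at 1397 ± 21.4 TPM in NC (SD, n = 3). SLC4A2, the anion exchanger that gives out bicarbonate for chloride, lay at 145 ± 6.98 TPM and CLIC4 at 134 ± 5.91 TPM. The beta subunit genes of the Na+/K+-ATPase, ATP1B3 (105 ± 5.33 TPM) and ATP1B1 (105 ± 3.82 TPM), and the scaffold gene SLC9A3R1 (102 ± 6.30 TPM) did not differ beyond their spread. In all, 7 tested members lay above 100 TPM in NC, and 21 tested members lay below 1 TPM.

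Several genes central to the textbook bile duct had low levels. CFTR, the cAMP-gated chloride channel, had 3 counts in each NC library and 2, 3 and 2 in the sgKCNQ3 libraries, under the filter. ANO1, the calcium-activated chloride channel, lay at 0.50 ± 0.0265 TPM in NC. SLC4A4, the electrogenic sodium-bicarbonate cotransporter, lay at 0.62 ± 0.0608 TPM and AQP1, the water channel of bile ducts, at 3.30 ± 0.664 TPM.

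**Figure D2:**
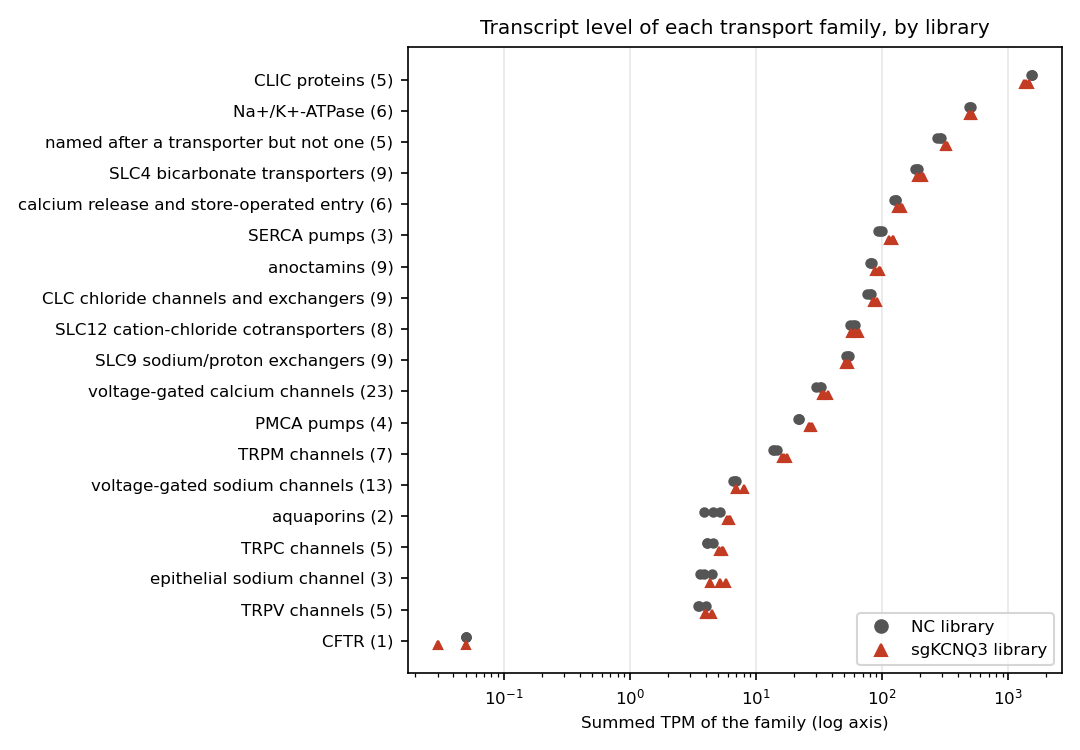
Each row is a family, with its number of members in brackets, and each point the summed TPM of that family in 1 library on a log axis (grey circles NC, red triangles sgKCNQ3). CLIC proteins and the Na+/K+-ATPase lie at the top, CFTR at the bottom. The groups are apart in 10 of the 19 families with sgKCNQ3 higher, the plasma membrane (PMCA) and endoplasmic reticulum (SERCA) calcium pumps among them, and in the CLIC family with sgKCNQ3 lower. On the TPM scale the median log2 difference over all tested genes was itself above 0 (0.06), so these counts are not read as particular to the families.

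The cation-chloride cotransporters held the called members of smallest p in each direction. SLC12A2 (chr5:128083766-128189688, plus strand, GRCh38) encodes NKCC1, which brings sodium, potassium and chloride into the cell. Its level was 12.3, 11.8 and 11.9 CPM in NC and 19.5, 18.8 and 19.5 CPM in sgKCNQ3. Each sgKCNQ3 library was well above each NC library, and SLC12A2 rose by 60.1% (log2 fold change 0.68, SE 0.0796, edgeR adjusted p = 6.07e-07). SLC12A4 (chr16:67943474-67969601, minus strand) encodes KCC1, a potassium-chloride cotransporter that carries chloride out and takes part in the recovery of swollen cells. It was at 56.5, 64.1 and 59.8 CPM in NC and 43.6, 46.2 and 45.6 CPM in sgKCNQ3. The groups were apart, and SLC12A4 fell by 0.41 on the log2 scale (SE 0.0555, edgeR adjusted p = 4.47e-06).

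In NC the TPM ratio of SLC12A2 to SLC12A4 came to 0.159, 0.135 and 0.148, and in sgKCNQ3 to 0.316, 0.286 and 0.301. Transcripts of the chloride importer remained fewer than those of KCC1 in each library, at about 0.15 of its level in NC and 0.30 in sgKCNQ3. The pair was picked after its values were seen, so no test is given for the ratio.

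SLC12A7, which encodes KCC4, was at 37.0 ± 2.56 and 38.8 ± 2.10 CPM (0.07, edgeR adjusted p = 0.442). In all, 2 of the 6 tested SLC12A genes were called higher and 1 lower, and the family's summed TPM ranged from 55.2 to 60.6 in NC libraries and from 57.0 to 65.1 in sgKCNQ3 libraries, which overlap.

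**Figure D3:**
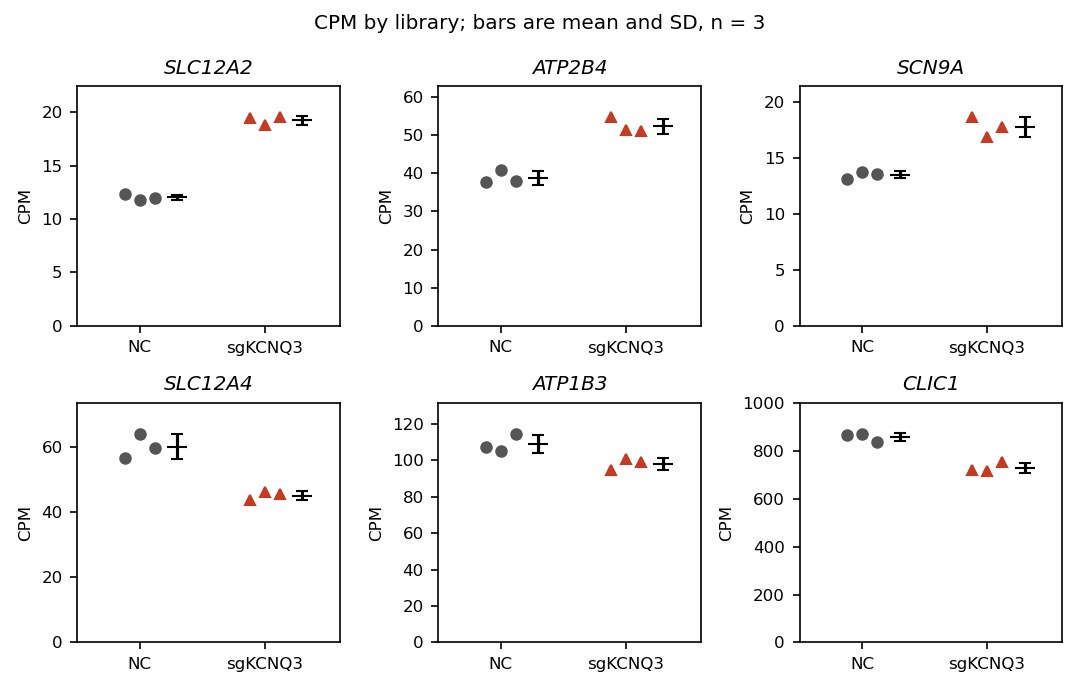
CPM of 6 called members in each library (grey circles NC, red triangles sgKCNQ3), with the mean and SD of 3 libraries beside them and the vertical axis starting at 0. The upper row (SLC12A2, ATP2B4 and SCN9A) is higher and the lower row (SLC12A4, ATP1B3 and CLIC1) lower in all sgKCNQ3 libraries.

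Sodium/proton exchangers bring sodium in and take protons out. SLC9A2 encodes NHE2, an apical exchanger of epithelia, and was low, at 3.18, 3.41 and 3.32 CPM in NC and 4.02, 5.2 and 4.19 CPM in sgKCNQ3. It rose (log2 fold change 0.43, SE 0.154, edgeR adjusted p = 0.0351). The call of SLC9A2 ended in the tests without NC replicate 1, NC replicate 2, NC replicate 3 or sgKCNQ3 replicate 2 (edgeR adjusted p 0.0648 to 0.178), and with length and GC trends removed (adjusted p = 0.0746). It also ended in DESeq2 (DESeq2 adjusted p = 0.187).

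SLC9A3, the absorptive apical exchanger NHE3, was at 22.9, 24.1 and 21.1 CPM in NC and 24.3, 24.8 and 25.2 CPM in sgKCNQ3. These groups were apart by a small step and did not pass the test (0.13, SE 0.0700, edgeR adjusted p = 0.184). SLC9A3 shares 56.7% of its exon bases with other annotated genes, and no source names the strand setting of the counting. Over the family, 2 of 7 tested exchangers were called higher and 1 lower.

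Bicarbonate carriers of the SLC4A family were dominated by SLC4A2, which held 77.5% of the family's TPM in NC. SLC4A2 stood at 349, 381 and 363 CPM in NC and 369, 344 and 372 CPM in sgKCNQ3, fully overlapping (log2 fold change -0.01, SE 0.0404, edgeR adjusted p = 0.858). Its estimate turned to the other sign under other scalings and never passed the test. SLC4A7, an electroneutral sodium-bicarbonate importer, overlapped as well, at 134 ± 11.0 and 141 ± 9.20 CPM (0.07, edgeR adjusted p = 0.377).

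The bicarbonate genes that were called lay at lower levels. SLC4A4 had 50, 44 and 51 counts in NC and 67, 77 and 83 in sgKCNQ3, or 3.09 ± 0.273 and 4.76 ± 0.503 CPM. All sgKCNQ3 libraries were higher, and SLC4A4 rose by 53.9% (log2 fold change 0.62, SE 0.153, edgeR adjusted p = 0.00327), with 0.49 after removal of length and GC trends (adjusted p = 0.0168). SLC4A11, a relative that carries protons and ammonia and is best known from the cornea, was at 16.9, 16.8 and 19.6 CPM in NC and 19.8, 21.6 and 21.4 CPM in sgKCNQ3. NC replicate 3 and sgKCNQ3 replicate 1 nearly met, and SLC4A11 rose by 0.24 on the log2 scale (SE 0.0790, edgeR adjusted p = 0.0246). SLC4A3, an anion exchanger of heart and brain, had 52, 65 and 57 counts in NC and 42, 38 and 48 in sgKCNQ3 and fell by 0.47 (SE 0.167, edgeR adjusted p = 0.0374).

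The calls of SLC4A11 and SLC4A3 each ended when certain libraries were left out. That of SLC4A11 ended without NC replicate 1, NC replicate 2 or sgKCNQ3 replicate 3 (edgeR adjusted p 0.0604 to 0.0992), and that of SLC4A3 without NC replicate 2, NC replicate 3, sgKCNQ3 replicate 1 or sgKCNQ3 replicate 2 (0.0792 to 0.142). In DESeq2 neither SLC4A11 nor SLC4A3 was called (DESeq2 adjusted p 0.107 and 0.212), and SLC4A3 was not called in edgeR with length and GC trends removed (edgeR adjusted p = 0.0546). Among the 6 tested SLC4A carriers 2 were called higher and 1 lower.

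The Na+/K+-ATPase, which exchanges sodium for potassium at the cost of ATP, had 1 called member. ATP1B3, a beta subunit needed for folding and delivery of the pump, was at 108, 105 and 114 CPM in NC and 94.6, 101 and 98.8 CPM in sgKCNQ3 and fell by 0.15 (SE 0.0451, edgeR adjusted p = 0.0125). Its fall was not called without NC replicate 3 or sgKCNQ3 replicate 1 (edgeR adjusted p 0.115 and 0.1), by library size alone, or on log2(TPM + 1) (limma adjusted p = 0.322). ATP1B1, the other abundant beta subunit, stood at 135 ± 4.10 and 138 ± 3.38 CPM (0.03, edgeR adjusted p = 0.574). Summed TPM over the family ranged from 489 to 508 in NC libraries and from 485 to 512 in sgKCNQ3 libraries, which overlap.

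Of 4 tested calcium pump genes, ATP2B4 and ATP2A2 were called higher, and ATP2B1 and ATP2A1 (0.12, edgeR adjusted p = 0.721) were not called. ATP2B4 (chr1:203626561-203744081, plus strand) encodes PMCA4, which expels calcium across the plasma membrane. Its level was 37.6, 40.9 and 37.9 CPM in NC and 54.7, 51.2 and 51.0 CPM in sgKCNQ3. Clear of overlap, ATP2B4 rose by 34.8% (log2 fold change 0.43, SE 0.0563, edgeR adjusted p = 3.19e-06), and by 0.32 with length and GC trends removed (adjusted p = 6.44e-05). ATP2B1, the more abundant PMCA gene, was at 66.7 ± 2.90 and 71.6 ± 2.51 CPM and did not pass the test (0.10, edgeR adjusted p = 0.118), with the other sign once length and GC trends were removed (-0.02) and a call by library size alone (0.14, adjusted p = 0.0345) and on log2(TPM + 1) (0.18, limma adjusted p = 0.0301).

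ATP2A2 encodes SERCA2, which returns calcium to the endoplasmic reticulum, and made up 99.1% of the SERCA TPM in NC. It was at 383, 402 and 394 CPM in NC and 447, 437 and 436 CPM in sgKCNQ3. The groups did not meet, and ATP2A2 rose by 11.9% (log2 fold change 0.16, SE 0.0357, edgeR adjusted p = 0.00131), also with length and GC trends removed (0.16, adjusted p = 5.67e-04). ATP2B4 and ATP2A2 kept their calls under each alternative and each library left out. In summed TPM, PMCA genes were at 21.51 to 22.03 in NC and 26.4 to 27.8 in sgKCNQ3, and SERCA genes at 92.7 to 99.3 and 114 to 121.5. Groups were apart this way in 10 of 19 families, on a scale whose median log2 difference over all tested genes was 0.06. That count is therefore not read as particular to the families.

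Of the genes for calcium release and store-operated entry, ITPR3 was the highest and the only one called. ITPR3 encodes the IP3 receptor type that bile duct cells use most, and its TPM in NC was 44.4 ± 1.34, against 1.59 for ITPR1 and 1.16 for ITPR2. It was at 248, 255 and 258 CPM in NC and 280, 264 and 285 CPM in sgKCNQ3 and rose by 0.12 on the log2 scale (SE 0.0386, edgeR adjusted p = 0.0174). That call ended with length and GC trends removed (0.06, edgeR adjusted p = 0.218) and without NC replicate 1, sgKCNQ3 replicate 1 or sgKCNQ3 replicate 3 (adjusted p 0.0700 to 0.0807). UQCC2, on the other strand, shares 10.4% of its exon bases.

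STIM1, the calcium sensor of the endoplasmic reticulum, was at 92.5, 90.0 and 90.3 CPM in NC and 100, 94.2 and 98.9 CPM in sgKCNQ3. The groups were apart, yet STIM1 did not pass (0.11, SE 0.0436, edgeR adjusted p = 0.0714). It did without sgKCNQ3 replicate 2 (edgeR adjusted p = 0.0171), with length and GC trends removed (adjusted p = 0.0237), by library size alone, with upper quartile factors and in TPM. ORAI1, the channel that STIM1 opens, overlapped between groups at 29.1 ± 2.12 and 27.1 ± 1.04 CPM (-0.10, edgeR adjusted p = 0.274), as did STIM2 at 10.3 and 11.0 CPM (0.10, adjusted p = 0.472). ITPR1 and ITPR2 had log2 fold changes of -0.05 (edgeR adjusted p = 0.730) and -0.06 (adjusted p = 0.687).

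Most voltage-gated calcium channel genes were under the filter. Of 23 members, 14 did not pass the filter, and 1 of the 9 tested was called. This was CACNA2D1, an auxiliary subunit that brings channels to the surface and binds gabapentin, at 11.9, 11.2 and 12.7 CPM in NC and 14.8, 12.9 and 14.5 CPM in sgKCNQ3 (log2 fold change 0.24, SE 0.0900, edgeR adjusted p = 0.0488). Each left-out test but the one without sgKCNQ3 replicate 2 ended the call (edgeR adjusted p 0.0550 to 0.166), as did DESeq2 (0.198) and removal of length and GC trends (0.430). CACNA1H, a low-voltage-activated pore subunit, was the most abundant of the family at 10.6 ± 1.49 TPM in NC. It was at 45.6, 57.2 and 54.3 CPM in NC and 57.1, 56.7 and 61.5 CPM in sgKCNQ3, with NC replicate 1 low and the groups overlapping, and was not called (0.16, edgeR adjusted p = 0.0747) except without NC replicate 2 (adjusted p = 0.0241), by library size alone, with upper quartile factors and with no filter (0.0217 to 0.0465).

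Among transient receptor potential (TRP) channels, TRPM7 and TRPC1 rose. TRPM7, a magnesium- and calcium-permeable channel fused to a kinase, was at 53.0, 45.4 and 45.8 CPM in NC and 56.3, 54.1 and 58.8 CPM in sgKCNQ3 (log2 fold change 0.23, SE 0.0594, edgeR adjusted p = 0.00436). The highest NC library, replicate 1, came close to the lowest sgKCNQ3 library, and the call ended with length and GC trends removed (0.09, edgeR adjusted p = 0.226). TRPM7 has one of the longest transcripts of the group, at 10400 bases. TRPC1, a subunit of receptor-operated cation channels, was at 10.6, 9.98 and 9.97 CPM in NC and 12.6, 12.6 and 12.1 CPM in sgKCNQ3 (0.29, SE 0.0904, edgeR adjusted p = 0.0186). Its call ended without NC replicate 2, NC replicate 3 or sgKCNQ3 replicate 1 (edgeR adjusted p 0.0542 to 0.0670) and in DESeq2 (0.122).

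None of the 3 tested TRPV genes was called. TRPV1, the capsaicin receptor, had 19, 22 and 24 counts in NC and 29, 38 and 30 in sgKCNQ3. Its groups did not overlap, and its log2 fold change was 0.55 (SE 0.227, edgeR adjusted p = 0.0693). TRPV2 had the highest TRPV level in NC, at 1.56 TPM (-0.08, edgeR adjusted p = 0.793).

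Sodium channels were sparse, and 1 of them changed clearly. SCN9A, a voltage-gated sodium channel best known from pain-sensing neurons, was at 13.2, 13.8 and 13.6 CPM in NC and 18.7, 16.9 and 17.8 CPM in sgKCNQ3. The groups were apart, and SCN9A rose by 31.4% (log2 fold change 0.39, SE 0.0806, edgeR adjusted p = 6.57e-04), with 0.25 after removal of length and GC trends (adjusted p = 0.0230). An antisense gene overlaps 8.17% of its exon bases. Of 13 voltage-gated sodium channel genes, 5 were tested.

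SCNN1A, the alpha subunit of the epithelial sodium channel, had 87, 112 and 101 counts in NC and 132, 109 and 144 in sgKCNQ3. sgKCNQ3 replicate 2 fell within the NC range. SCNN1A rose (log2 fold change 0.34, SE 0.123, edgeR adjusted p = 0.0410), but not without NC replicate 1, NC replicate 3, sgKCNQ3 replicate 1 or sgKCNQ3 replicate 3 (adjusted p 0.0867 to 0.176) or in DESeq2 (DESeq2 adjusted p = 0.177). SCNN1B, the beta subunit, had 1 count in 1 NC library and none elsewhere.

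In the CLCN, ANO and CLIC families, 2 members were called higher and 1 lower. CLCN3, a chloride/proton exchanger of endosomes, was at 140, 138 and 138 CPM in NC and 152, 157 and 158 CPM in sgKCNQ3. With tight groups that did not meet, CLCN3 rose by 0.17 (SE 0.0397, edgeR adjusted p = 0.00242), a call that ended with length and GC trends removed (0.06, adjusted p = 0.266). ANO6, a calcium-activated lipid scramblase and ion channel, was at 160, 155 and 153 CPM in NC and 178, 174 and 179 CPM in sgKCNQ3 and rose by 0.18 (SE 0.0390, edgeR adjusted p = 0.00102), or 0.09 without those trends (adjusted p = 0.0464).

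CLIC1 was at 865, 872 and 839 CPM in NC and 720, 716 and 753 CPM in sgKCNQ3. Each sgKCNQ3 library lay below each NC library, and CLIC1 fell by 15% (log2 fold change -0.23, SE 0.0353, edgeR adjusted p = 1.98e-05), or -0.16 with length and GC trends removed (adjusted p = 8.39e-04). It is a short transcript, at 1560 bases. CLIC4 was at 355 ± 16.3 and 352 ± 6.38 CPM (-0.01, edgeR adjusted p = 0.877), and its sign turned under other scalings.

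ANO1 had 23, 21 and 21 counts in NC and 31, 26 and 32 in sgKCNQ3, apart but not past the test (0.43, SE 0.225, edgeR adjusted p = 0.160). ANO9, named after its values were seen, had 33, 53 and 47 counts in NC and 67, 46 and 66 in sgKCNQ3. Its groups overlapped and it was not called (0.40, edgeR adjusted p = 0.104) except without sgKCNQ3 replicate 2 (adjusted p = 0.0218) and with length and GC trends removed (0.0488). One of 5 tested CLCN genes, 1 of 7 anoctamins and 1 of 4 CLIC genes were called.

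The aquaporins were weakly expressed and not called. AQP1 was at 6.74, 4.80 and 4.79 CPM in NC and 6.91, 6.34 and 6.57 CPM in sgKCNQ3. NC replicate 1 lay within the sgKCNQ3 range while the other NC libraries lay below it (log2 fold change 0.28, SE 0.134, edgeR adjusted p = 0.119), and without NC replicate 1 AQP1 was called (0.46, adjusted p = 0.0189). AQP3, which passes water and glycerol, was at 1.28 ± 0.340 and 1.76 ± 0.220 CPM (0.46, edgeR adjusted p = 0.168).

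The scaffold genes caught by the symbol rule were both higher. SLC9A3R1 and SLC9A3R2, now named NHERF1 and NHERF2, encode PDZ proteins that hold NHE3 and CFTR at the apical membrane. SLC9A3R1 was at 108, 122 and 116 CPM in NC and 134, 126 and 137 CPM in sgKCNQ3, and SLC9A3R2 at 98.5, 98.5 and 101 and at 115, 110 and 107 CPM. Neither overlapped between groups, and they rose by 0.19 (SE 0.0472, edgeR adjusted p = 0.00300) and 0.15 (SE 0.0432, edgeR adjusted p = 0.00900). These are short transcripts, and with length and GC trends removed the rises were 0.29 (edgeR adjusted p = 4.43e-06) and 0.26 (adjusted p = 1.82e-04). Exons of other genes cover 11.3% of the SLC9A3R1 exon bases. The SLC9A3R2 call ended without sgKCNQ3 replicate 1 (edgeR adjusted p = 0.0710).

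**Figure D4:**
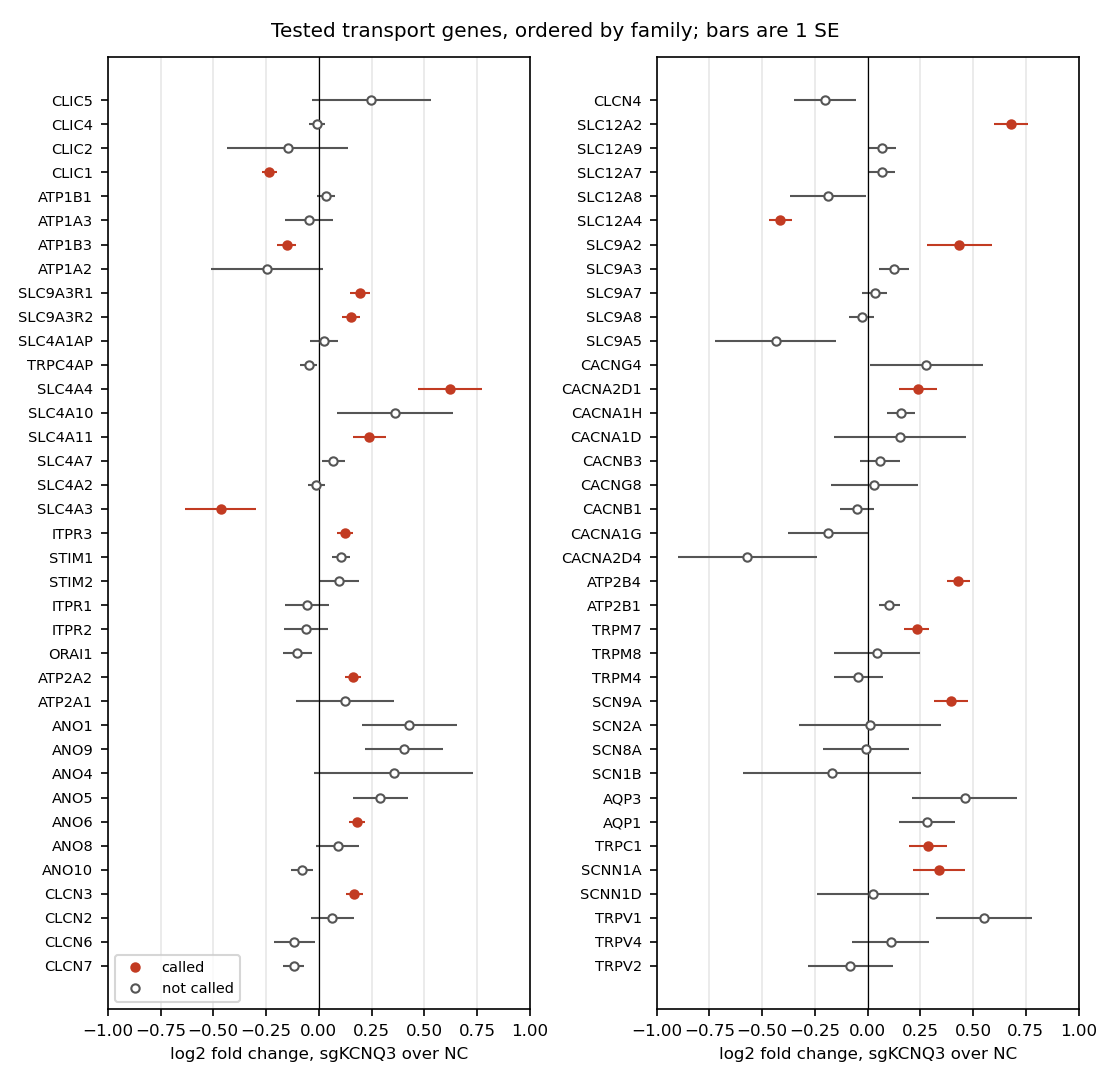
Log2 fold change of sgKCNQ3 over NC with 1 SE for 74 tested members, ordered by family from the most to the least abundant, red and filled where called. Points to the right of 0 are higher in sgKCNQ3, where 16 of the called members plotted lie, with 4 to the left.

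The 53 untested members reached at most 11 counts in any library and 0.36 TPM. Of these, 37 had no more than 5 counts in each library, and 22 no more than 1. The other 16 were ANO2, ANO7, ATP2A3, CACNA1I, CACNA2D2, CACNA2D3, CACNB4, SCN3B, SCN4A, SCN4B, SLC4A5, SLC4A9, SLC9A4, SLC9A9, TRPC4 and TRPC6. Groups did not overlap in CPM in 5 of the 53, CACNB2 being higher in sgKCNQ3 and SCN11A, SCN3B, SLC9A9 and TRPC4 lower. Over all tested genes, 20.4% were apart with sgKCNQ3 higher and 21.3% with sgKCNQ3 lower. Those genes had passed the filter on counts that the 53 did not, so these are unlike sets and no difference is read from them. The 5 separations rest on few counts, CACNB2 having 0 in each NC library and 1 in each sgKCNQ3 library. SCN3B had 5, 9 and 7 counts in NC and 5, 5 and 1 in sgKCNQ3, so only the scaling to CPM set its groups apart. In an edgeR fit with no filter, 0 of the 53 were called and 2, SCN4A and TRPC4, had an unadjusted p under 0.05, and DESeq2 gave an adjusted p for 0 of them. SCN4A passed the filter without NC replicate 1 and was called there (1.58, SE 0.576, edgeR adjusted p = 0.0492).

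**Figure D5:**
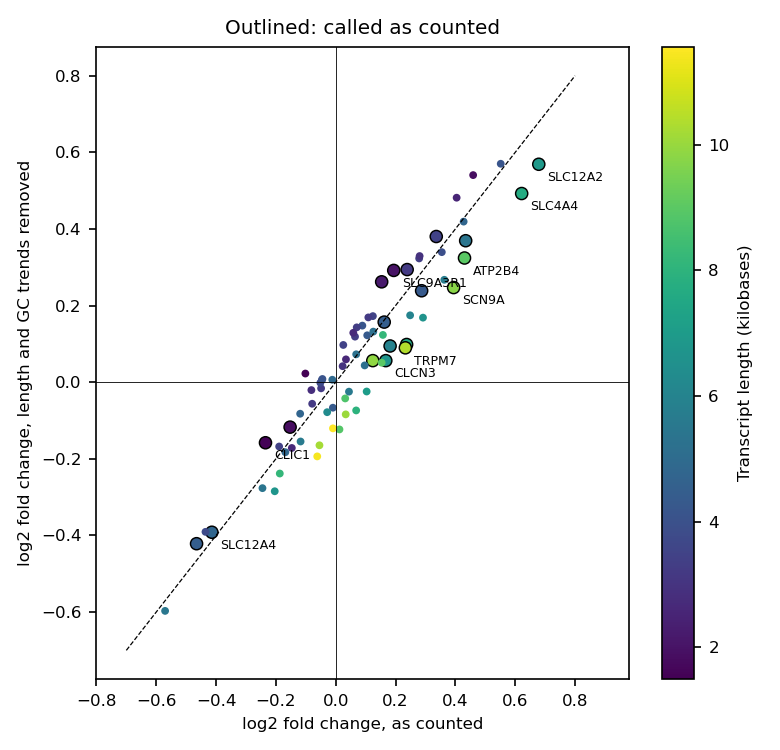
Log2 fold change of 74 tested members as counted (horizontal) and after the trends over length and GC were taken out of each library (vertical), coloured by transcript length, with called members outlined and the dashed line marking equal values. TRPM7 (10400 bases, 39.6% GC) lies below the line and SLC9A3R1 (1969 bases, 61.5% GC) above it, length and GC trends being removed together. SLC12A2, ATP2B4 and SLC12A4 stay far from 0 on both axes.

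Of the 18 members called higher, 11 were also called higher with those trends removed. Those that were not included CACNA2D1, CLCN3, ITPR3, SLC9A2 and TRPM7. Of the 5 called lower, 4 stayed so, SLC4A3 being the exception, and ANO9 and STIM1 were among those called with the trends removed alone. The summed FPKM, a value per transcript length, ranged from 656809 to 668732 in NC libraries and from 630332 to 642515 in sgKCNQ3 libraries, so libraries differed in length makeup along with the groups, and a technical and a cellular source of that difference cannot be told apart.

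Other genes of the same transport systems, from a list outside the symbol rule, were called at 25.4%, against 29.1% of all tested genes. The list named regulators of the cotransporters, carbonic anhydrases, SLC26 exchangers, volume-regulated channels and further calcium channels and pumps, and 63 of its genes were tested. Of these, 10 (15.9%) were called higher and 6 (9.52%) lower, against 14% and 15.1% of all tested genes, with a median log2 fold change of -7.02e-04.

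Regulators of the SLC12A and SCNN1A products were among them. WNK1, the kinase at the head of the cascade that activates NKCC1 and inhibits the KCCs, was at 214, 216 and 226 CPM in NC and 257, 259 and 262 CPM in sgKCNQ3 and rose by 0.25 (SE 0.0375, edgeR adjusted p = 2.44e-05). NEDD4L, a ubiquitin ligase that removes the epithelial sodium channel from the surface, was at 139, 141 and 142 CPM in NC and 113, 115 and 112 CPM in sgKCNQ3 and fell by 0.32 (SE 0.0405, edgeR adjusted p = 2.25e-06). SGK1, a kinase that restrains NEDD4L, fell from 103 ± 3.32 to 84.1 ± 2.67 CPM (-0.30, edgeR adjusted p = 1.88e-05). For WNK1, NEDD4L and SGK1 the groups were apart. With length and GC trends removed all were still called, at 0.14 for WNK1, -0.43 for NEDD4L and -0.29 for SGK1. Of related kinases on the list, WNK2 was called higher (0.26, edgeR adjusted p = 0.00239). WNK4 (0.02, edgeR adjusted p = 0.958), OXSR1 (0.03, adjusted p = 0.643) and STK39 (0.08, adjusted p = 0.208) were not called. STK39 did pass on log2(TPM + 1) (0.25, limma adjusted p = 0.00462).

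CA12, a carbonic anhydrase on the cell surface that interconverts bicarbonate and carbon dioxide, rose from 7.86 ± 1.08 to 13.4 ± 0.781 CPM (0.77, SE 0.104, edgeR adjusted p = 5.30e-06). The sulfate carrier gene SLC26A2 (0.32), the endolysosomal channel gene TPCN1 (0.25), the polycystin channel gene PKD2 (0.37) and the mechanosensitive channel gene PIEZO2 (0.46) rose as well. Removal of length and GC trends left all of these called, at 0.70 for CA12, 0.19 for SLC26A2, 0.24 for TPCN1, 0.32 for PKD2 and 0.35 for PIEZO2. Lower genes included the mitochondrial sodium/calcium exchanger gene SLC8B1 (-0.41), the volume-regulated anion channel subunit gene LRRC8C (-0.30), FXYD5 (-0.19), a modulator of the Na+/K+-ATPase, and TTYH3 (-0.12). The calls of FXYD5 and TTYH3 ended with length and GC trends removed (edgeR adjusted p 0.155 and 0.140), and that of TTYH3 also without NC replicate 1, NC replicate 3, sgKCNQ3 replicate 2 or sgKCNQ3 replicate 3 (0.0882 to 0.261). SLC8B1 and LRRC8C were not called on the TPM scale.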

How the data were processed

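The 3 NC and 3 sgKCNQ3 libraries were made from poly(A)-selected RNA of the RBE line. The authors deposited estimated counts per gene (5.52% to 6.33% of values per library not whole), TPM, FPKM, and counts divided by 1 factor per library, a normalized signal. That signal and the authors' deposited group means were not used, among them a score of whole numbers. Per the submitters' processing notes, reads were placed on GRCh38.p13, and no aligner, counter or strand setting is named in the sources read. Members and lists were chosen with earlier results of these data known.

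R 4.3.3 with edgeR 4.0.16 served for the tests on rounded counts (TMM factors, filterByExpr with a minimum count of 10, robust quasi-likelihood test, Benjamini-Hochberg over 12565 of 16200 genes). The filter removed 3635 genes. Library totals lay between 15601283 and 16089500, and the biological coefficient of variation was 3.62%. The procedure was tested on simulated counts first. Alternatives were other scalings and filters, DESeq2 1.42.0, limma 3.58.1 (voom, and log2 of TPM plus 1 or 0.1), length and GC trends removed by splines of 5 degrees of freedom, a replicate block, and each library left out. Transcript lengths and exon overlaps came from GENCODE 29 (16062 genes matched).

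Genes named with values were members with a set role in epithelial transport, called members, the most abundant member of each family, and up to 6 called genes a direction from the list of other transport genes. Values of CACNA2D1 beyond its fold change, ANO9, and the kinases WNK2, WNK4, OXSR1 and STK39 were added after they were seen. Some members are not reported here by name. They remain in the counts. Counting error alone does not cover library preparation.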

Additional observations from a re-analysis of the deposited data

How the results depend on the processing

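Of the 20 called members reported by name, 8 kept call and direction in every alternative run (SLC12A2, SLC12A4, SLC4A4, ATP2A2, ATP2B4, SCN9A, CLIC1 and SLC9A3R1), 12 lost the call in at least 1, and 0 reversed. The cause of the differences was not tested. Members called higher, 18 as reported, were 11 in DESeq2, and 12 to 19 with 1 library left out. Members called lower, 5 as reported, were 3 by library size alone, 3 on log2(TPM + 0.1) and 3 on log2(TPM + 1), and 3 to 6 with 1 library left out (3 without NC replicate 3 or sgKCNQ3 replicate 1). In DESeq2 the genes called over the whole table were 2322, against 3658. Calls that were higher made up 48.2% of these as reported, 64.5% by library size alone and 80.8% on log2(TPM + 1). The fall of KCNQ3 mRNA did not pass on log2(TPM + 0.1) (-0.2173, limma adjusted p = 0.174) or log2(TPM + 1) (-0.1544, limma adjusted p = 0.151).

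Libraries with the same replicate number did not deviate together (r = 0.014, -0.098 and 0.008 across genes, which are not independent), so the numbers are not taken as a pairing. With the replicate block 15 members were called higher and 4 lower, and genes called over the whole table were 3136. With the block and length and GC trends removed, 10 members were called higher.

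Sign changes occurred in members not called, in log2 units. On log2(TPM + 0.1) and log2(TPM + 1) the values were 0.0421 and 0.041 for ANO10, 0.082 and 0.0814 for CLIC4, 0.0286 and 0.0199 for ITPR1, 0.0389 and 0.0234 for ITPR2, and 0.0761 and 0.0756 for SLC4A2. With length and GC trends removed, without and with the block, they were -0.0243 and -0.0246 for ATP2B1, 0.0226 and 0.0233 for ORAI1, 0.0064 and 0.0063 for SLC4A2, and -0.0737 and -0.0742 for SLC4A7. By library size alone they were 0.0266 for CLIC4 and 0.0252 for SLC4A2, and with upper quartile factors 0.0103 and 0.0087. With 1 library left out the ranges were -0.0452 to 0.0199 for CLIC4, -0.148 to 0.0351 for ITPR1, -0.1048 to 0.0028 for ITPR2, -0.0423 to 0.0318 for SLC4A2, and -0.1686 to 0.0277 for TRPV2. The 53 members under the filter hold at most 11 counts in any library, and in an edgeR fit with no filter 0 of them were called (2 at an unadjusted p under 0.05).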
